A study of Mus musculus with 9 samples.

Results

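The genes described here are 10 regulators and markers of long-term hematopoietic stem cells (HSCs): Mecom, Hlf, Mllt3, Prdm16, Fgd5, Ctnnal1, Msi2, Nkx2-3, Mycn and Gfi1. They were taken as a list known to maintain or mark these cells, and the list was chosen with earlier results of these data known. Each gene was read from its brightest probe set that carries a single gene symbol. All 10 were found among 22180 genes on the array, and all 10 were among the 16636 genes bright enough to be tested. HSCs had been sorted from bone marrow of mice aged 6 to 8 months on 9 arrays, 3 per genotype. KO mice carried 2 floxed Bcl11a alleles and Mx1-Cre, Het mice carried 1 floxed and 1 wild-type allele and Mx1-Cre, and WT mice carried 2 floxed alleles and no Cre. The Mx1 promoter that drives Cre responds to interferon, and the growth protocol gives 5 doses of poly(I:C), an interferon inducer, with no group left out. KO and Het therefore both differ from WT in Cre as well as in Bcl11a, and these cannot be told apart. The sort kept Sca-1+ Kit+ CD150+ cells that lacked lineage markers, CD48 and Flt3, in a YFP+ or a YFP- gate, and the labels do not tie either gate to an array.

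HSCs persist for life by dividing rarely and by keeping a transcription programme that blocks differentiation. Mecom (also known as Evi1) and Prdm16 are related zinc finger proteins of the PR domain family, and Hlf is a PAR bZIP factor; all are needed for, or mark, cells that can repopulate marrow over the long term. Mllt3 (AF9) reads acylated histones and brings the methyltransferase DOT1L and elongation factors to genes. Bcl11a, the deleted gene, encodes a zinc finger repressor that silences fetal globin and that B cell development needs.

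Expression is given as log2 values from RMA, and means are given ± SD over 3 arrays. Levels of different genes come from different probes and were not ranked against each other. Bcl11a itself read 7.82, 7.90 and 8.66 on the KO arrays, 8.34, 8.37 and 8.89 on the Het arrays and 8.73, 8.81 and 8.38 on the WT arrays. KO replicate 3 thus lay inside the WT range, and where the probes lie relative to the removed part is not stated in the labels. Bcl11a KO minus WT was -0.51 for this probe set (limma adjusted p = 0.655). A dimmer Bcl11a probe set read 7.26, 6.94 and 7.39 on KO arrays, 6.97, 6.70 and 7.44 on Het arrays and 6.38, 8.08 and 6.93 on WT arrays, so its KO mean was 0.07 above its WT mean. Of the markers used in the sort, Kit averaged 9.55 in KO, 9.43 in Het and 9.16 in WT cells, and Slamf1, which encodes CD150, averaged 6.97, 7.09 and 5.34. Flt3, which the sort excluded, averaged 3.72, 3.99 and 4.78, and Cd48, also excluded, 4.24, 4.41 and 4.34. The KO minus WT difference was 1.63 for Slamf1 (limma adjusted p = 0.543) and -1.06 for Flt3 (adjusted p = 0.475), and Het minus WT was 1.75 and -0.79 (adjusted p = 0.889 and 0.989). None passed the test; the KO and Het means of Slamf1 lay above WT, as for most members, and those of Flt3 below. The part of these sort markers in the members' differences was not tested. Xist and Y-linked genes put 1 KO, 1 Het and 2 WT arrays to female mice. The Y-linked genes read 2.22 to 3.32 on these 4 arrays, and no array read a member in that range. Xist, which male cells lack, read 3.58 to 4.22 on the male arrays, so the level of an absent transcript differed between probe sets. Nkx2-3 read 3.91 on WT replicate 1 and 4.20 on Het replicate 3, within the range of Xist on male arrays. The interquartile range over all probe sets, a measure of how spread an array's values are, was 2.83, 2.80 and 2.42 on KO arrays, 2.53, 2.39 and 2.77 on Het arrays and 2.22, 2.47 and 2.69 on WT arrays. WT replicate 1 had the narrowest spread of the 9.

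Homozygous deletion, as the labels name it, was set against WT first. Mecom, Mllt3, Fgd5, Ctnnal1 and Hlf read higher on every KO array than on any WT array, while Prdm16, Msi2, Nkx2-3, Mycn and Gfi1 overlapped between these genotypes. The median difference over the 10 members was 0.81 on the log2 scale, where that of all genes tested was -0.04, and it was 0.49 without WT replicate 1. All 10 means were higher in KO cells, as were 45.3% of all genes, and 5 of 10 members had KO arrays wholly above WT arrays, as did 6.51% of all genes. None of the 10 passed limma's test at an adjusted p under 0.05, where 0.0361% of all genes passed as higher and 0.00601% as lower. At an unadjusted p under 0.05, 5 of 10 members were higher, against 5.4% of all genes. The list was chosen with earlier results of these data known, so these shares describe the members and do not test them. Groups of sorted cells were measured, so a larger share of cells that carry a transcript and more transcript per cell cannot be told apart.

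**Figure D1:**
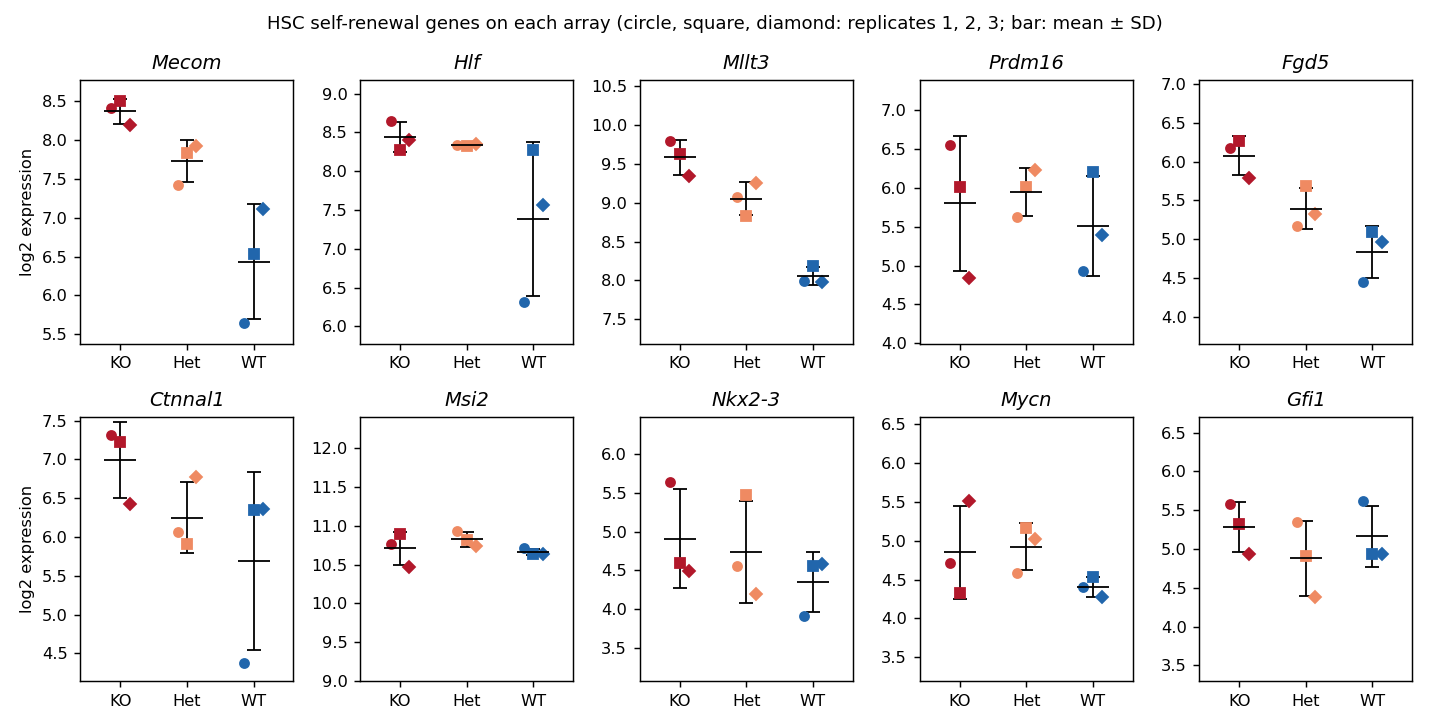
Log2 expression of each gene on each array, by genotype; black bars give the mean ± SD of 3 arrays, and every panel spans the same number of log2 units. Mecom, Mllt3 and Fgd5 step down from KO through Het to WT without overlap, while WT replicate 1 (circle) lies far below the other WT arrays for Hlf (6.31) and Ctnnal1 (4.37).

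Mecom, the zinc finger factor, read 8.41, 8.51 and 8.20 on KO arrays, 7.42, 7.83 and 7.93 on Het arrays and 5.65, 6.53 and 7.12 on WT arrays. No array of one genotype overlapped those of another. The KO arrays lay close together and the WT arrays far apart, with SDs of 0.158 and 0.74. KO cells thus averaged 3.84-fold more Mecom than WT cells (log2 difference 1.94, 95% interval 1.17 to 2.71, limma adjusted p = 0.137), the 25th smallest p of all genes. Het cells averaged 2.45-fold more than WT (1.29, interval 0.52 to 2.06, adjusted p = 0.731). A dimmer Mecom probe set read 6.26, 5.53 and 5.6 on KO arrays and 4.57, 3.62 and 6.16 on WT arrays, a difference of 1.01 with overlap. The WT value of 3.62 lay within the range of Xist on male arrays. The size of the Mecom difference thus varied with the probe set, and averaging over the gene's probe sets gave 1.48 (adjusted p = 0.397).

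Prdm16, the relative of Mecom, did not follow it. It read 6.55, 6.01 and 4.84 on KO arrays, 5.62, 6.01 and 6.23 on Het arrays and 4.93, 6.21 and 5.40 on WT arrays. All 3 genotypes overlapped, and KO replicate 3 was the lowest of the 9 arrays. KO minus WT was 0.29 (interval -0.71 to 1.28, adjusted p = 0.86), so a difference as large as that of Mecom lay outside the interval. A dimmer Prdm16 probe set gave 4.19, 4.70 and 5.87 on KO arrays and 4.29, 4.73 and 4.50 on WT arrays, with KO replicate 3 the highest. The probe sets therefore ordered the KO arrays in opposite ways, though the dimmer set's value of 4.19 lay within the range of Xist on male arrays.

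Hlf, the PAR bZIP factor, read 8.65, 8.28 and 8.40 on KO arrays, 8.34, 8.32 and 8.35 on Het arrays and 6.31, 8.27 and 7.56 on WT arrays. The Cre-carrying arrays were tightly grouped just above the highest WT array, by 0.01 at the closest. KO minus WT was 1.06 (interval 0.15 to 1.97, adjusted p = 0.563) and Het minus WT 0.96 (interval 0.05 to 1.87, adjusted p = 0.992). WT replicate 1 set much of both: without it they were 0.53 and 0.42. Between male mice (2 KO arrays and 1 WT array) the Hlf difference was 0.20, and between female mice (1 and 2) it was 1.47, or 0.84 without WT replicate 1. KO minus Het was 0.11 (interval -0.80 to 1.02).

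Mllt3, the chromatin reader, read 9.79, 9.63 and 9.34 on KO arrays, 9.08, 8.83 and 9.25 on Het arrays and 7.99, 8.19 and 7.98 on WT arrays. The 3 genotypes did not overlap, and all SDs lay at or under 0.228. KO cells averaged 2.89-fold more Mllt3 than WT cells (log2 difference 1.53, SE 0.224, interval 1.04 to 2.03), the 9th smallest p of all genes, and the adjusted p of 0.0566 missed the threshold. Het cells averaged 2-fold more than WT (log2 difference 1, interval 0.5 to 1.5, adjusted p = 0.731), and KO minus Het was 0.53 (interval 0.04 to 1.03, adjusted p = 0.998). Within female mice KO minus WT was 1.35 and within male mice 1.52. With array weights the adjusted p was 0.0282, and leaving out WT replicate 1 gave a difference of 1.5 with an adjusted p of 0.196.

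The sequences before the transcription starts of these 3 genes are shown because the genes lead the list and Bcl11a is a DNA-binding repressor. They are the 250 bases upstream of RefSeq starts on build GRCm38.p6, on the strand of the gene, 5′ to 3′. Capitals mark matches to 1 of 6 motifs searched on both strands: TGACCA for BCL11A, AGATAA for GATA factors, CCGGAA for ETS factors, CACGTG for the MYC family, TGACAG for MEIS factors and TTACGTAA for HLF and related PAR bZIP factors. A match on the other strand appears as its reverse complement, and no marked matches overlap.
Mllt3, upstream start, chr4:88033408-88033657, minus strand: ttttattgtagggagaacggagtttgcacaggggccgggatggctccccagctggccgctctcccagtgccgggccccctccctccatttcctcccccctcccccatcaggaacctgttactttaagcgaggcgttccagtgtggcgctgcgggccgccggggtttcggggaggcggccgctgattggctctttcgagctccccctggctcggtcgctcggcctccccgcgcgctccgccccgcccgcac
Mllt3, internal start, chr4:87806324-87806573, minus strand: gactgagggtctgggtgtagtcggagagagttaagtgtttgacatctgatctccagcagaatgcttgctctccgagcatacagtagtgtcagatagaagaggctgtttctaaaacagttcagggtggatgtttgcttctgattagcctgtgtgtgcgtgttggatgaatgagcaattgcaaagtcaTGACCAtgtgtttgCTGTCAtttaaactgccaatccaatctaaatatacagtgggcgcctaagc
Mecom, upstream start, chr3:30509760-30510009, minus strand: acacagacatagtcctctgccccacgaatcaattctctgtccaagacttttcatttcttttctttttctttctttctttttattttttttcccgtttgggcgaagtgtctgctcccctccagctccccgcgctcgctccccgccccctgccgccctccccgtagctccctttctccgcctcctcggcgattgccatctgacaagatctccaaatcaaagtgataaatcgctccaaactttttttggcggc
Mecom, internal start, chr3:30013205-30013454, minus strand: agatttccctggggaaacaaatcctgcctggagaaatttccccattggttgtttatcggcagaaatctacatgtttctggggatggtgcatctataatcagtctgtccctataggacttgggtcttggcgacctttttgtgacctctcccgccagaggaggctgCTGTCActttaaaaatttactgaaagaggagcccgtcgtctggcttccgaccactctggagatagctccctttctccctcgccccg
Hlf, chr11:90390918-90391167, minus strand: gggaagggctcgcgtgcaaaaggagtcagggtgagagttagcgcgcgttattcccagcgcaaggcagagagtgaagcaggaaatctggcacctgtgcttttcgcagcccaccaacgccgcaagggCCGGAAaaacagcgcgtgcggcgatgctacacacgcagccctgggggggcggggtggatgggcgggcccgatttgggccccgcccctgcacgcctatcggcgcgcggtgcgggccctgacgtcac

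Among 15 windows of the 10 members, TGACCA occurred in 1, the internal Mllt3 window, 64 bases before the start, and in 11.38% of 32851 windows of all genes. TGACAG or its complement occurred there as well, and in the internal Mecom window and the Fgd5 window, against 15.86% of all windows. CCGGAA occurred in the Hlf window (12.03% of all), and CACGTG in the 3 overlapping Msi2 windows (6.02%). AGATAA (9.99%) and TTACGTAA (0.11%) occurred in no member window. These matches describe letters only, and which start was used in the sorted cells was not measured by these probe sets.

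Fgd5, a guanine nucleotide exchange factor whose reporter mice label HSCs, read 6.18, 6.26 and 5.79 on KO arrays, 5.17, 5.68 and 5.33 on Het arrays and 4.45, 5.09 and 4.96 on WT arrays. The genotypes did not overlap here either. KO minus WT was 1.24, or 2.37-fold (interval 0.67 to 1.82, limma adjusted p = 0.211), and Het minus WT was 0.56 (interval -0.02 to 1.14, adjusted p = 0.992), or 0.37 without WT replicate 1. Fgd5 is also an endothelial gene, so endothelial and stromal markers were read on the same arrays: 5 of 10 tested were higher in KO cells, and the mean of all 13 ranged from 4.65 to 4.76 on KO arrays and 4.16 to 4.58 on WT arrays. Pecam1, Eng, Kdr and Emcn were higher by 1.97, 1.5, 1.24 and 1.19, none past the threshold. At an unadjusted p under 0.05, 3 of the 10 tested were higher and 0 lower, against 5.4% and 2.81% of all genes. Cdh5, a cadherin of endothelium, averaged 4.02 in KO and 4.22 in WT cells, within the range of Xist on male arrays. The part of these markers in the Fgd5 difference was not tested.

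Ctnnal1, which encodes alpha-catulin and is another reporter gene for HSCs, read 7.32, 7.22 and 6.43 on KO arrays, 6.06, 5.91 and 6.77 on Het arrays and 4.37, 6.35 and 6.36 on WT arrays. KO replicate 3 cleared the highest WT array by 0.07. KO minus WT was 1.30 (interval 0.15 to 2.44, adjusted p = 0.566), and it was 0.64 without WT replicate 1. Het minus WT was 0.55 and changed direction without that array, to -0.11.

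The RNA-binding protein Musashi-2, encoded by Msi2, restrains differentiation of HSCs. It read 10.76, 10.89 and 10.47 on KO arrays, 10.93, 10.81 and 10.74 on Het arrays and 10.71, 10.64 and 10.64 on WT arrays. The Het arrays lay just above the WT arrays and the KO arrays spanned both. KO minus WT was 0.04 with an interval of -0.42 to 0.51, and Het minus WT 0.16 (-0.30 to 0.63). A dimmer Msi2 probe set differed by 0.51 and 0.44 in the same comparisons, with its lowest value, 8.02, on WT replicate 1.

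Nkx2-3, a homeodomain factor needed for spleen and gut vessels, read 5.64, 4.59 and 4.49 on KO arrays, 4.55, 5.47 and 4.20 on Het arrays and 3.91, 4.56 and 4.58 on WT arrays. The groups overlapped, and 1 KO and 1 Het array stood above the rest. KO minus WT was 0.56 (interval -0.34 to 1.45, adjusted p = 0.718), and it was 0.19 without KO replicate 1 and 0.34 without WT replicate 1. Mycn, which acts with Myc in HSC growth and survival, read 4.71, 4.33 and 5.51 on KO arrays, 4.58, 5.16 and 5.03 on Het arrays and 4.41, 4.53 and 4.28 on WT arrays. Its Het arrays lay above its WT arrays, by 0.05 at the closest (difference 0.52, interval -0.18 to 1.21). Its KO minus WT difference was 0.44, and 0.11 without KO replicate 3.

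Gfi1, a repressor that limits HSC division, read 5.58, 5.32 and 4.94 on KO arrays, 5.35, 4.91 and 4.38 on Het arrays and 5.62, 4.94 and 4.94 on WT arrays. It was the member with a lower Het than WT mean (difference -0.29, interval -0.99 to 0.42), and its KO mean was 0.11 above WT (interval -0.59 to 0.82). All 3 genotypes overlapped. An exact permutation test of KO against WT arrays, two-sided, gave p = 0.1 for Mecom, Hlf, Mllt3, Fgd5 and Ctnnal1, the smallest that 3 arrays against 3 allow, and 0.3 to 1 for the other 5 members.

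**Figure D2:**
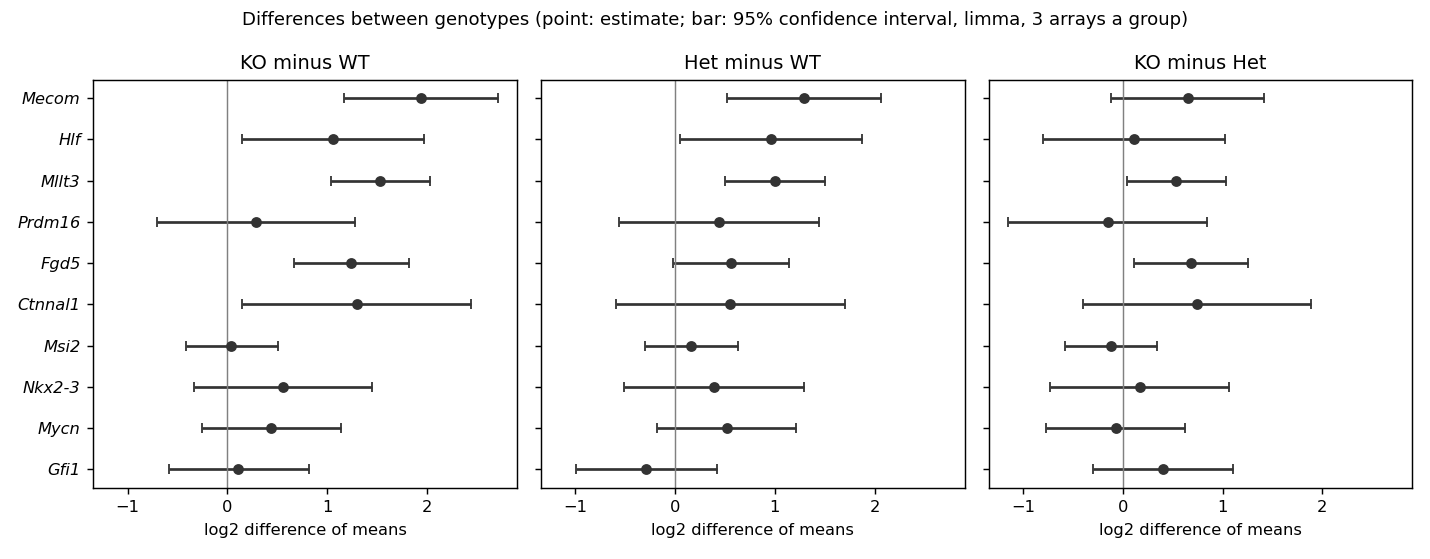
Log2 difference of genotype means for each gene in 3 comparisons, with 95% confidence intervals from limma. The KO minus WT intervals of Mecom, Hlf, Mllt3, Fgd5 and Ctnnal1 lie above 0. Those of Prdm16, Msi2 (-0.42 to 0.51), Nkx2-3, Mycn and Gfi1 (-0.59 to 0.82) include it.

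Heterozygous deletion was compared next. This comparison shares the WT arrays with the one above, so the values are given side by side and not as a repeat. The median Het minus WT difference of the members was 0.54, where that of all genes was -0.01, and it was 0.28 without WT replicate 1. Of the means, 9 of 10 were higher, as were 48.2% of all genes. No member passed limma's test, and 0% of all genes did. At an unadjusted p under 0.05, 3 of 10 members were higher (Mecom, Hlf and Mllt3), against 3.12% of all genes. Het arrays lay wholly above WT arrays for 6 of 10 members, Mecom, Hlf, Mllt3, Fgd5, Msi2 and Mycn, and for 4.51% of all genes. Het minus WT in female mice was 1.42 for Hlf and 1.40 for Ctnnal1, where that in male mice was 0.06 and -0.37. The female values include WT replicate 1, and without it they were 0.79 and 0.41. A limma fit with a mean per genotype and sex, added after seeing the data and with 3 residual degrees of freedom, gave no member a difference between the sexes that passed, with adjusted p = 0.995 for both genes.

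KO and Het mice both carry Cre, so this comparison is free of that difference. KO arrays lay wholly above Het arrays for Mecom, Mllt3 and Fgd5, 3 of 10 members, and for 4.42% of all genes. Mecom differed by 0.65 (interval -0.12 to 1.42) and Fgd5 by 0.68 (interval 0.11 to 1.26). Between female mice (1 KO and 1 Het array) KO minus Het was 0.27 for Mecom, 0.09 for Mllt3 and 0.46 for Fgd5. Between male mice (2 and 2) these values were 0.84, 0.76 and 0.79. The members' median was 0.28, beside -0.02 for all genes. It was 0.13 without KO replicate 1 or without Het replicate 3, and 0.47 without KO replicate 3. Of the means, 7 of 10 were higher, as were 46.9% of all genes. No member passed limma's test (0% of all genes did), while 2 of 10, Mllt3 and Fgd5, had an unadjusted p under 0.05, against 2.61% of all genes. Means were ordered with KO above Het above WT for 6 of 10 members, Mecom, Hlf, Mllt3, Fgd5, Ctnnal1 and Nkx2-3, and for 18.6% of all genes. Per deleted allele, Mllt3 differed by 0.77 (interval 0.52 to 1.01, adjusted p = 0.0763), Mecom by 0.97 (0.59 to 1.35, adjusted p = 0.124) and Fgd5 by 0.62 (0.35 to 0.89, adjusted p = 0.168). None passed, where 0.018% of all genes did.

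**Figure D3:**
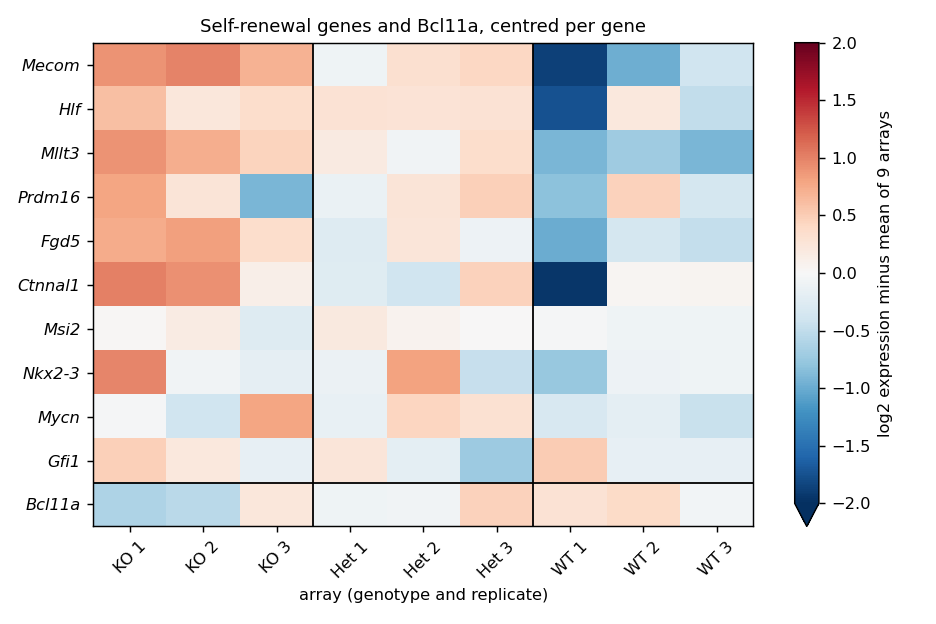
Log2 expression of the 10 genes and Bcl11a on each array minus the gene's mean over 9 arrays (red above, blue below). Mecom, Mllt3 and Fgd5 are blue on all 3 WT arrays, and the darkest cells lie on WT replicate 1; Bcl11a is low on KO replicates 1 and 2 and not on KO replicate 3 (8.66).

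The members varied together in part. Over the 9 arrays Mecom followed Fgd5 (Pearson's r 0.926, Spearman's rho 0.967), Mllt3 (0.893 and 0.917) and Ctnnal1 (0.841 and 0.817), and Mllt3 followed Fgd5 (0.879 and 0.917). Gfi1 with Mecom gave -0.199 and Msi2 with Ctnnal1 0.1. These values describe 9 arrays that differ in genotype and share the same normalization, and they are not tests. On KO replicate 3, Mecom (8.20), Mllt3 (9.34) and Fgd5 (5.79) read above every WT and Het array, which restates the lack of overlap given above. The Bcl11a reading of that array lay in the WT range, and the part of Bcl11a in these values was not tested. The interquartile range of the arrays was also used as a term in the fit. KO minus WT was then lower for Mecom (1.59), Mllt3 (1.40), Fgd5 (1.10), Hlf (0.80) and Ctnnal1 (0.62). It was also lower for Nkx2-3 (0.47), Msi2 (0) and Prdm16 (-0.15), and higher for Mycn (0.67) and Gfi1 (0.23). With this term limma's adjusted p was 0.179 for Mllt3 and 0.367 for Mecom.

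Of 14477 annotated genes compared, 51 had a Pearson's r above 0.9 with Mecom, 38 with Hlf and 32 with Mllt3. Closest to Mecom were Med12, a Mediator subunit (r 0.975), Mettl26 (0.969), Tcp11l2 (0.968), Rasgef1b (0.965) and Plcg2, a phospholipase of immune receptor signalling (0.956). Med12 averaged 7.67 in KO, 7.18 in Het and 6.62 in WT cells. Closest to Mllt3 were Cysltr2, a cysteinyl leukotriene receptor (0.974), Adgrl4, an adhesion receptor (0.967), Lpcat4 (0.965), Kyat1 (0.962) and Fcer1g, a signalling chain of Fc receptors (0.961). Cysltr2 averaged 8.45, 6.88 and 5.30 in KO, Het and WT cells. For Hlf they were Rrp1 (0.961), Phf21a (0.952), the histone demethylase gene Kdm3b (0.945), Arhgap27 (0.944) and Ppp1r10 (0.943), but Spearman's rho was 0.577 for Rrp1, 0.367 for Phf21a and 0.400 for Arhgap27.

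Other genes of the HSC programme, Slamf1 among them, were read for context. Of 32 tested, 27 were higher in KO cells and 5 lower, with a median difference of 0.55 (all genes -0.04), and none passed limma's test; 10 were higher and 0 lower at an unadjusted p under 0.05. Hoxb5, a homeobox marker of long-term HSCs, averaged 7.49 ± 0.361 in KO, 5.79 ± 0.55 in Het and 5.26 ± 0.347 in WT cells (KO minus WT 2.24, adjusted p = 0.0566). Tek, the angiopoietin receptor, differed by 1.69 (adjusted p = 0.514). At the low end were Socs2, a signalling inhibitor, at -1.01 (adjusted p = 0.845) and Bmi1, a Polycomb subunit that HSCs need, at -0.68 (adjusted p = 0.697).

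Paralogs of the members lay on both sides: of 27 tested, 13 were higher and 14 lower in KO cells (median -0.18), none past limma's threshold and 2 with an unadjusted p under 0.05. The exceptions were relatives of Fgd5. Fgd4 read 5.54, 5.05 and 5.78 on KO arrays, 4.23, 4.01 and 4.78 on Het arrays and 3.44, 3.65 and 3.83 on WT arrays, with no overlap (KO minus WT 1.82, adjusted p = 0.0716). Fgd2 differed by 0.96 (adjusted p = 0.486), with a Het mean of 6.13 above its KO mean of 5.70. The lowest were Nkx2-6 (-0.45) and Nkx2-9 (-0.42). Among known partners, the elongation and DOT1L complexes of MLLT3, the MAX network of MYC proteins and corepressors of GFI1, 18 of 24 were higher and 6 lower (median 0.15), none past the threshold. Hdac1, a histone deacetylase, differed by 1.34 and Ell2, an elongation factor, by 1.12, both with WT replicate 1 as their lowest array, at 5.74 and 6.02. Mxi1, a MAX partner, differed by -0.36 and Cdk9, the elongation kinase, by -0.27.

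**Figure D4:**
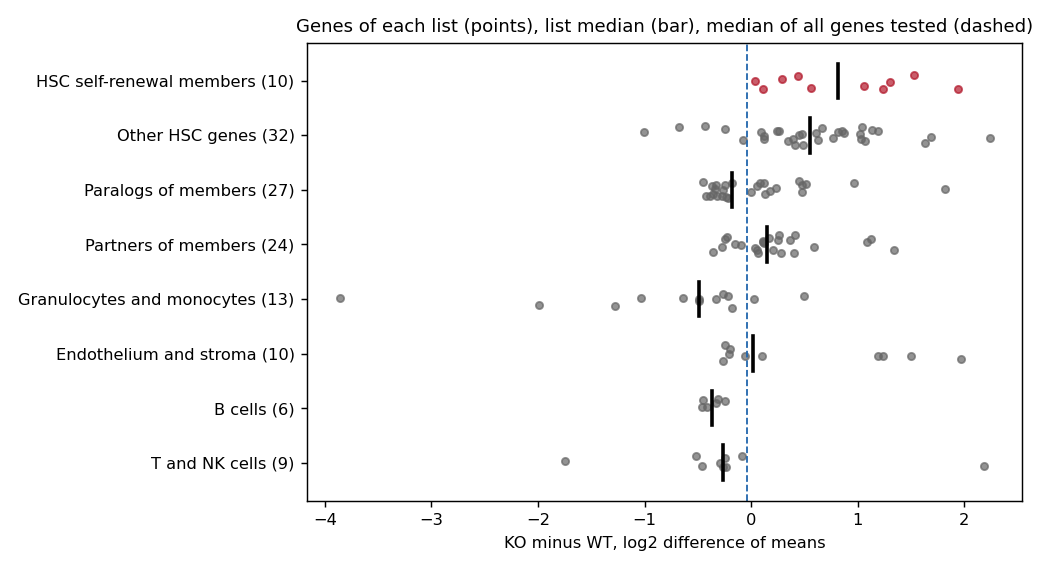
KO minus WT log2 difference of each tested gene (points) by list, with the list's median (bar) and the median of all 16636 genes (dashed line, -0.04); numbers of tested genes are in parentheses. Members (median 0.81) and other HSC genes (0.55) lie to the right, paralogs (-0.18) and granulocyte and monocyte genes (-0.49) to the left.

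Markers of other blood cells differed by lineage, where 54.3% of all genes had a lower KO than WT mean. For genes of granulocytes and monocytes, 11 of 13 tested had lower KO means (median -0.49), and their mean over 14 genes ran from 4.4 to 4.72 on KO arrays, 4.70 to 5.54 on Het arrays and 5 to 5.72 on WT arrays. The highest of these means was on WT replicate 1. S100a8, a neutrophil protein, read 5.34, 6.74 and 2.31 on KO arrays and 8.97, 8.59 and 8.42 on WT arrays (KO minus WT -3.86, adjusted p = 0.41), while Elane, the neutrophil elastase that defines early granulocytes, averaged 4.39 and 4.61. Tested B cell markers were lower for 6 of 6 (median -0.37) and T and NK cell markers for 8 of 9 (median -0.26). Macrophage markers were lower for 6 of 9 (median -0.09), mast cell and basophil markers for 3 of 3 (median -0.33) and markers of multipotent progenitors for 6 of 8 (median -0.09). Some of these lists read near absent transcripts. The mean over 8 mast cell and basophil genes was 2.78 to 3.20 over the arrays, within the Y-linked range of female arrays. That over 9 B cell genes was 3.62 to 3.68 on KO and 3.84 to 4.26 on WT arrays. For 11 T and NK cell genes it was 3.71 to 4.01 and 3.95 to 4.03, beside 3.58 to 4.22 for Xist on male arrays. Erythroid markers were higher for 4 of 7 (median 0.03) and megakaryocyte and platelet markers for 4 of 9 (median -0.01), beside a median of -0.04 for all genes. No marker in these lists passed limma's test. At an unadjusted p under 0.05, 4 of 13 granulocyte and monocyte genes were lower and 0 higher, against 2.81% and 5.4% of all genes. The mean of the 10 members ran from 6.84 to 7.36 on KO arrays, 6.71 to 6.89 on Het arrays and 5.84 to 6.53 on WT arrays. The part of granulocyte or lymphoid RNA in the members' differences was not tested.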

How the data were processed

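RNA of sorted HSCs was amplified with the NuGEN Ovation Pico kit and hybridised as biotin-labelled cDNA to Mouse Gene 2.0 ST arrays from Affymetrix, per the labels' protocols. The authors deposited log2 values per probe set made with RMA, as the submitters' processing notes state; the RMA version was not given in the sources used. RMA removes background and normalizes arrays to each other, which compresses differences of dim transcripts.

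Of 41345 probe sets, 23521 had 1 gene symbol, 1814 several and 16010 none in the platform annotation. Symbols were updated by gene identifier (23328 matched, 193 did not), and each of 22180 genes took its probe set with the highest mean. Genes under the 25th percentile of mean level (3.31) were left out, which kept 16636. Genotype means were modelled over all 9 arrays by limma 3.58.1 under R 4.3.3, with 6 residual and 4.26 prior degrees of freedom, and the fit was tested on simulated data. Adjusted p-values are two-sided Benjamini-Hochberg values over all genes tested, with a threshold of 0.05; intervals are at 95% and unadjusted. The number of arrays limits precision: the median SE of KO minus WT was 0.298. Arrays of a genotype correlated at 0.862 to 0.932. The labels call replicates biological.

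The members and lists were chosen with earlier results of these data known. Genes named are the members, Bcl11a, sex-linked genes, the 2 highest and 2 lowest of the HSC, paralog and partner lists and the 5 genes most like Mecom, Hlf and Mllt3, without predicted genes, small RNAs or olfactory and vomeronasal receptors; other genes named, all from lists of cell type and sort markers, were chosen after their values were seen. Promoter windows come from RefSeq (GRCm38.p6) and matched all 10 members by symbol. Alternatives changed the normalization, filter, probe set rule, arrays and covariates.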

Additional observations from a re-analysis of the deposited data

Results flagged for a closer look

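For 3 members a genotype difference ran one way on all arrays of female mice and the opposite way on all arrays of male mice; each such comparison within a sex rests on 2 to 4 arrays. Ctnnal1 Het minus WT was 1.40 in female mice (1 Het array and 2 WT arrays) and -0.37 in male mice (2 and 1), and its KO minus Het was -0.34 in female mice (1 and 1) and 1.29 in male mice (2 and 2). Prdm16 Het minus WT was 1.07 in female mice and -0.40 in male mice. Msi2 KO minus WT was -0.21 in female mice and 0.18 in male mice. Without WT replicate 1 the female values against WT were 0.41 for Ctnnal1, 0.83 for Prdm16 and -0.17 for Msi2. Limma's test of the difference between the sexes gave adjusted p = 0.995 and 0.652 for Ctnnal1, 0.99 for Prdm16 (unadjusted p = 0.0416) and 0.906 for Msi2 in these comparisons. It called 0 of 16636 genes in each comparison, with 1101 (KO minus WT), 825 (Het minus WT) and 1361 (KO minus Het) at an unadjusted p under 0.05. Prdm16 KO minus Het, at -1.39 in female mice and 0.46 in male mice, had an unadjusted p of 0.0159 and an adjusted p of 0.555.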

How the results depend on the processing

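Same-numbered arrays did not deviate together (correlations of deviations from the genotype means -0.209 to 0.236), so the fit with the replicate number as a block is given here alone: it called 0 genes for KO minus WT and 7 for the allele trend, and no member. The main counts were 7 (6 higher, 1 lower) for KO minus WT, 3 for the trend and 0 for the other comparisons, where limma gave 813 (Het minus WT) and 759 (KO minus Het) genes at an unadjusted p under 0.05. For KO minus WT the count was 3 when quantile normalized again (3 higher, 0 lower) and with sex as a term, 4 with a filter at the median level, 1 with only the 2 groups compared, 24 under array weights, 0 when the interquartile range was a term and 2 without both WT replicate 1 and KO replicate 3. For the trend it was 17 under array weights, 0 when the interquartile range was a term, 1 with sex as a term and 0 without both those arrays. Leaving out single arrays gave 0 to 15 for KO minus WT (0 without KO replicate 1 or WT replicate 1, and more than 1.5 times above or below 7 for each array but Het replicate 2) and 0 to 14 for the trend. The cause was not tested. Mecom and Mllt3 passed for KO minus WT with array weights (adjusted p = 0.0417 and 0.0282) and in no other setting run. For the trend both passed with array weights (0.0389 and 0.027) and Mllt3 without KO replicate 3 (0.0373).

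The members' median ran from 0.49 to 1.02 for KO minus WT, 0.28 to 0.74 for Het minus WT and 0.13 to 0.47 for KO minus Het when single arrays were left out. Without both WT replicate 1 and KO replicate 3, a setting chosen after seeing the data, 8 members had KO arrays wholly above WT arrays (17.3% of all genes). Differences that changed direction were at most 0.55 in size in the main fit, the value of Ctnnal1 Het minus WT. When the interquartile range was a term they were Hlf KO minus Het (-0.03), Prdm16 KO minus WT (-0.15) and per allele (-0.07), and Mycn KO minus Het (0.05). Prdm16 KO minus Het was 0.17 over all probe sets of the gene, 0.16 with array weights and 0.33 without both arrays, where Ctnnal1 Het minus WT was -0.11. Msi2 KO minus WT and per allele was -0.01 with sex as a term, and Gfi1 was -0.08 and -0.04 when quantile normalized again. Leaving out single arrays gave -0.09 to 0.77 for Prdm16 KO minus WT, -0.53 to 0.33 for its KO minus Het and -0.01 to 0.39 per allele; -0.11 to 0.89 for Ctnnal1 Het minus WT; -0.05 to 0.16 for Msi2 KO minus WT and -0.01 to 0.09 per allele; -0.20 to 0.53 for Nkx2-3 KO minus Het; -0.40 to 0.19 for Mycn KO minus Het; and -0.04 to 0.34 for Gfi1 KO minus WT and -0.04 to 0.19 per allele.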
